A study of Mus musculus with 12 samples.

Results

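The 10 mouse genes described here encode the MHC class II presentation machinery, namely the α and β chains H2-Aa, H2-Ab1 and H2-Eb1, the peptide loading chains H2-DMa, H2-DMb1 and H2-DMb2, the loading modulators H2-Oa and H2-Ob, the invariant chain Cd74 and the transactivator Ciita. They were taken by name from a table of read counts with 54532 genes, and all 10 passed the filter on low counts, which kept 17320 genes. The counts came from bulk sequencing of polyadenylated RNA of dissociated intracranial tumors grown from B16-OVA, a mouse melanoma line that expresses ovalbumin. The hosts were wild-type C57BL/6J mice of both sexes, 6 to 10 weeks of age, each with a flank tumor as well as the brain tumor, and tumors were taken on day 8. IgG mice (n = 3) received control antibody. CD8L and CD8H mice (n = 3 each) received PC blockade, which is anti-PD-1 with anti-CTLA-4, and were divided by the study according to how many CD8+ T cells the tumor held, so genes of T cells are not independent of that division. ΔNK mice (n = 3) received PC blockade together with an antibody against asialo-GM, a glycolipid on NK cells, named anti-Asialo-GM2 in the labels and anti-Asialo-GM1 in the methods of the study. Such an antibody can also bind other leukocytes that carry the glycolipid.

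MHC class II molecules display peptides of engulfed or endosomal proteins to CD4+ T cells. The α and β chains assemble in the endoplasmic reticulum with the invariant chain Cd74, which fills the peptide groove and directs the complex to endosomes, where proteases trim it to a fragment named CLIP. H2-DM then releases CLIP and lets peptide bind, and H2-O, found mainly in B cells and some dendritic cells, restrains H2-DM. Dendritic cells, B cells and activated macrophages are the usual sources of these transcripts, and interferon γ can induce them in other cells through IRF1 and Ciita. Ciita binds no DNA itself but docks on factors held at the X and Y boxes of class II promoters. C57BL/6 mice lack a working gene for the α partner of H2-Eb1, whose pseudogene H2-Ea-ps was counted 0 or 1 times in each library.

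All genes of the set except Cd74 and Ciita lie in the class II region of chromosome 17 (GRCm38, coordinates of the deposited table). H2-Aa (ENSMUSG00000036594) spans 34282744 to 34287827 on the minus strand. On the plus strand are H2-Ab1 (ENSMUSG00000073421, 34263209 to 34269418), H2-Eb1 (ENSMUSG00000060586, 34305877 to 34316199) and H2-DMa (ENSMUSG00000037649, 34135182 to 34139101). The plus strand also holds H2-DMb1 (ENSMUSG00000079547, 34153072 to 34160230), H2-DMb2 (ENSMUSG00000037548, 34143307 to 34151553), H2-Oa (ENSMUSG00000024334, 34092340 to 34095234) and H2-Ob (ENSMUSG00000041538, 34238903 to 34245907). Ciita (ENSMUSG00000022504) lies on the plus strand of chromosome 16 from 10480059 to 10528418. Whether the counting used strand is not stated in the labels or methods, so where H2-Oa overlaps the antisense gene BC051537 and Ciita overlaps the antisense gene Dexi, the reads of each pair cannot be told apart. Of the 50-base windows in H2-DMb1 transcripts, 22.7% also occur in H2-DMb2 transcripts, so the division of reads between these paralogs is uncertain. Of the windows of H2-DMb2, 24.8% also occur in transcripts of other genes. Among those 431 windows, 369 occur in H2-DMb1, and others in Zw10 (46) or 1700055D18Rik (35).

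Promoter sequence is shown because Ciita acts through boxes in it. RefSeq promoter windows (GRCm38.p6) matched 7 of the 10 genes. Stretches are printed for genes with X letters and a Y box at the spacing given below. Of these, only stretches upstream of the RefSeq start and outside annotated UTRs are shown. Capitals mark the Y box GATTGG and, before it, letters of the X box.
H2-Aa: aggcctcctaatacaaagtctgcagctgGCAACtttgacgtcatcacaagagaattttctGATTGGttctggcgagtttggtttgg
H2-Eb1: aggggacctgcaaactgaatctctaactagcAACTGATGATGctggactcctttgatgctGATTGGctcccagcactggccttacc
H2-DMb2: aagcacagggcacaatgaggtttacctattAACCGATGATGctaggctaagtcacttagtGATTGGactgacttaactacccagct
H2-Ob: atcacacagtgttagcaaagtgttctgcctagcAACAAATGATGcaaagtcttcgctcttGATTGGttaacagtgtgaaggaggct
These stretches are chr17:34287847-34287932 (minus strand), chr17:34305747-34305832, chr17:34145098-34145183 and chr17:34238787-34238872 (plus strand) in that order. The H2-DMb2 stretch lies inside the span of the counted gene, outside its annotated exons. The Y box begins 49, 60, 91 and 58 bases upstream of the RefSeq start, and 27, 18, 19 and 16 bases separate it from the marked X letters. GATTGG, searched on both strands, was in the windows of all 7 genes and in 16.1% of the 32851 windows of all genes. The X-box letters ACAGATG were in the windows of 2 of the 7, against 5.01% of all windows, and no window of the 7 had them 10 to 40 bases before GATTGG on the same strand, against 0.0365% of all windows. GCAAC, and AAC followed after any 3 bases by TGATG, which share the letters AAC where they overlap, were chosen after these sequences had been read. With GATTGG at the same spacing, GCAAC was found for 4 of the 7 genes (0.502% of all windows) and the longer motif also for 4 of the 7, while 7 windows of all genes held that pair (0.0213%). In the windows of H2-DMb1 and H2-Oa, 19 and 27 bases lie between the X letters and the Y box. H2-DMa, which had 2 windows, held GATTGG and GCAAC but none of these pairs at that spacing, so no stretch of it is printed.

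Total counts were 16336993 to 26416214 per library. The spread between replicates of a group exceeded sampling noise, as chi-square per degree of freedom was 15.4 to 148. The second ΔNK tumor stood apart from the other 11, with the lowest CPM (counts scaled to library size after TMM normalization) of each gene of the set. For genes of the set, ratios of group means or median differences involving ΔNK are also given without each tumor of that group. Calls of the set are given without single ΔNK tumors where stated. Results for lists of other genes, and tests of ratios of genes within a library, use all ΔNK tumors. Whether those results hold without single ΔNK tumors is not shown, apart from changes of sign or call in the ratios. Nothing in the labels names a batch.

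Transcripts of all 10 genes were highest in the CD8H tumors, where every tumor was above each of the 9 others. Against the mean of IgG, CD8L and ΔNK the rise was 2.25 to 3.37 on the log2 scale, with a median of 2.93 where the median of all tested genes was 0.05. By edgeR's quasi-likelihood test all 10 genes were called higher, with both p and its Benjamini-Hochberg adjusted value over all tested genes at most 0.05, a call that 14.4% of tested genes received in this direction. The groups did not overlap in this direction for 10.6% of tested genes. All 10 genes remained called without any single library.

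The chains showed the levels in full. H2-Ab1, the β chain of I-A, had 234, 110 and 130 CPM in the 3 IgG tumors and 124, 66.8 and 110 CPM in the 3 CD8L tumors. It had 958, 548 and 407 CPM in the CD8H tumors and 58.6, 4.31 and 16.7 CPM in the ΔNK tumors. IgG and CD8L tumors thus overlapped, the CD8H tumors stood above them and the ΔNK tumors below, and no ΔNK tumor reached the lowest CD8L tumor. The mean was 158 ± 66.3 CPM in IgG, 100.2 ± 29.8 in CD8L, 638 ± 286 in CD8H and 26.5 ± 28.5 in ΔNK (SD, n = 3 each). The log2 fold change of CD8H over the mean of the 3 others was 3.09 with a standard error of 0.51 (edgeR, adjusted p = 0.00227).

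H2-Aa, the α chain that pairs with H2-Ab1, had 231, 121 and 139 CPM in IgG, 137, 71.3 and 120 in CD8L, 1106, 601 and 462 in CD8H and 48.7, 5.28 and 17.4 in ΔNK tumors. The order of tumors within each group was that of H2-Ab1. Its log2 fold change of CD8H against the other groups was 3.26 ± 0.46 (SE, edgeR adjusted p = 0.00108). H2-Eb1, the β chain of I-E, had group means of 129 ± 52.6 CPM in IgG, 80.4 ± 27.8 in CD8L, 536 ± 269 in CD8H and 17.6 ± 15.4 in ΔNK (SD, n = 3), a log2 difference of 3.24 ± 0.47 (SE, edgeR adjusted p = 0.00125). For all 3 chains the highest tumor of the series was the first CD8H tumor and the lowest the second ΔNK tumor. H2-Eb2, a relative of H2-Eb1 and no member of the set, had 1.07 to 4.43 CPM in CD8H tumors and at most 0.76 CPM in the 9 others.

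**Figure D1:**
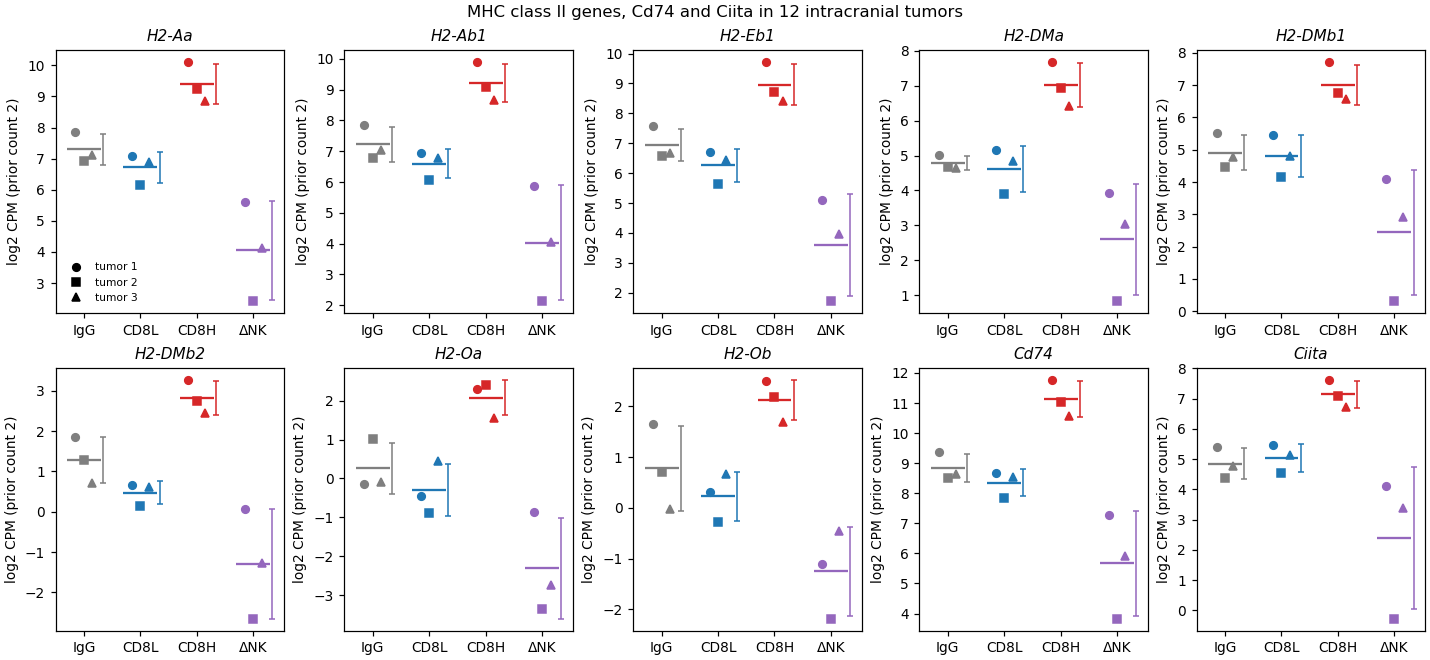
Levels of the 10 genes in 12 intracranial tumors, as log2 CPM with a prior count of 2 (y axis, own range for each gene) by group (x axis). Each symbol is a tumor, horizontal lines are group means and bars the SD of 3 tumors. In each panel the 3 CD8H tumors sit above the other 9, and the square of the second ΔNK tumor is the lowest.

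The H2-DM chains had 16.1 to 16.6 times the mean CPM of ΔNK tumors in CD8H tumors, against 24.1 to 30.5 times for the 3 chains above, a difference between genes that was not tested. Without the first ΔNK tumor these ratios were 27.9 to 38.4 and 56.9 to 63.8. They were 11.2 to 11.8 and 17.0 to 21.9 without the second, and 14.1 to 16.4 and 20.3 to 28.9 without the third. H2-DMa, the α chain, had 32.1, 25.4 and 25.1 CPM in IgG, 35.3, 14.7 and 28.6 in CD8L, 205, 122 and 85.9 in CD8H and 15.1, 1.70 and 8.14 in ΔNK tumors. Its CD8H tumors stood apart, whereas the highest ΔNK tumor was just above the lowest CD8L tumor. The log2 fold change of CD8H against the other groups was 2.92 ± 0.43 (SE, edgeR adjusted p = 0.00125). H2-DMb1, a β chain, had means of 31.5 ± 12.3 CPM in IgG, 29.9 ± 13.1 in CD8L, 138 ± 63.8 in CD8H and 8.55 ± 8.02 in ΔNK (SD, n = 3). Its paralog H2-DMb2 had 2.47 ± 1.01, 1.31 ± 0.26, 7.18 ± 2.17 and 0.44 ± 0.46 CPM in the same order. H2-DMb2 was the only gene of the 10 whose IgG and CD8L tumors did not overlap, with the lowest IgG tumor at 1.54 CPM and the highest CD8L tumor at 1.47 CPM. Of all tested genes 2.54% had every CD8L tumor below every IgG tumor. On this small gap edgeR gave a log2 difference of -0.91 ± 0.62 (SE, CD8L minus IgG, adjusted p = 0.974). Both β chains were higher in CD8H than in the other groups, by 2.77 ± 0.50 for H2-DMb1 and 2.65 ± 0.45 for H2-DMb2 (log2, SE, edgeR adjusted p = 0.00325 and 0.00253).

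H2-Oa and H2-Ob, which encode the α and β chains of H2-O, had the lowest mean FPKM (fragments scaled by gene length and library size) of the set in each group. H2-Oa had 0.81, 1.93 and 0.84 CPM in IgG, 0.63, 0.45 and 1.26 in CD8L, 4.82, 5.16 and 2.84 in CD8H and 0.46, 0 and 0.05 in ΔNK tumors. The ΔNK values rest on 10, 0 and 1 reads, and a count of 0 in the second tumor allows up to 3 counts, or 0.18 CPM, for counting error only. H2-Ob had 3.04, 1.53 and 0.89 CPM in IgG, 1.14, 0.72 and 1.49 in CD8L, 5.53, 4.45 and 3.15 in CD8H and 0.36, 0.12 and 0.63 in ΔNK tumors. CD8H tumors were again above the 9 others, and the closest approach of any gene was that of H2-Ob, where the lowest CD8H tumor had 3.15 CPM and the highest IgG tumor 3.04 CPM. CD8H exceeded the mean of the other groups by 2.94 ± 0.56 for H2-Oa and by 2.25 ± 0.41 for H2-Ob (log2, SE, edgeR adjusted p = 0.00435 and 0.00348).

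Cd74 (ENSMUSG00000024610, plus strand of chromosome 18 from 60803848 to 60812646) was the most abundant transcript of the set in every tumor. It had 663, 365 and 399 CPM in IgG, 407, 230 and 374 in CD8L, 3498, 2108 and 1524 in CD8H and 154, 14.1 and 59.7 in ΔNK tumors. It made up 43.8% to 52.0% of the summed CPM of the 10 genes, a sum that ran from 30.6 CPM in the second ΔNK tumor to 7038 CPM in the first CD8H tumor. The 3 CD8H tumors had the highest shares, between 49.7% and 52.0%. Its log2 fold change of CD8H against the other groups was 3.37 ± 0.48 (SE, edgeR adjusted p = 0.00112).

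Ciita, through which most control of class II transcription passes, had 42.4, 20.5 and 27.4 CPM in IgG, 43.9, 23.0 and 34.7 in CD8L, 196, 135 and 106 in CD8H and 17.0, 0.73 and 10.3 in ΔNK tumors. IgG and CD8L tumors overlapped, and Ciita was the only gene of the 10 whose mean was higher in CD8L (33.9 ± 10.5 CPM) than in IgG (30.1 ± 11.2 CPM; SD, n = 3). The log2 difference between these 2 groups was 0.17 ± 0.68 (SE, edgeR adjusted p = 0.984), and its sign turned when the first CD8L or the second IgG tumor was left out. The second ΔNK tumor held 12 Ciita reads against 374 and 198 in the others, a 23.4-fold range within the group that was the widest of the genes with reads in each ΔNK tumor. Over the mean of the others CD8H was higher by 2.78 ± 0.50 (log2, SE, edgeR adjusted p = 0.00338).

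Between pairs of groups the size of the difference was similar across the set but the calls varied. The comparisons share groups, so their values stand side by side and are not independent. CD8H was above ΔNK by 3.52 (H2-Ob) to 4.97 (Cd74) on the log2 scale, and edgeR called all 10 genes, where 15.7% of tested genes were called higher. As ratios of group means in CPM this was 11.8-fold for H2-Ob, 24.1-fold for H2-Ab1 and 31.3-fold for Cd74. The ratios turn on single ΔNK tumors. Without the first they were 11.7, 60.9 and 64.5, without the second 8.83, 17.0 and 22.3, and without the third 18.0, 20.3 and 28.3 for these genes, CD8H being higher each time. CD8H was above CD8L by 1.96 (H2-Ob) to 2.82 (Cd74), and 7 genes were called against 6.03% of tested genes. H2-DMb1, H2-Oa and Ciita were the others, with adjusted p values of 0.0659, 0.0657 and 0.0769 in edgeR. DESeq2 called all 10 (8.95% of tested genes higher). EdgeR called 0 of the 10 without the first or second CD8L tumor and in a fit of the 6 libraries of both groups alone. In these settings it called 0 of all genes. It also called 0 of the 10 without the first or second CD8H tumor, when 2 and 718 of all genes were called. Without the second or the third IgG tumor or the third ΔNK tumor it called 4, with 1503, 1334 and 1464 of all genes. With all 12 libraries it called 1939 of all genes.

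CD8H exceeded IgG by 1.27 (H2-Ob) to 2.32 (H2-DMa and Cd74), with no overlap of tumors for any of the 10 genes, as for 14.3% of tested genes in this direction. No gene of the set was called by edgeR, where 0.577% of tested genes were called higher, although all 10 had an unadjusted p of at most 0.05, as 3307 of 17320 genes did. The lowest adjusted p among the 10 was 0.0767, for H2-DMa. Other fits made more calls in general and in the set. DESeq2 called 7 of the 10 (5.44% of tested genes higher), all but H2-DMb2, H2-Oa and H2-Ob, and limma voom with sample quality weights called all 10 (9.73%). Without the second ΔNK tumor, which is in neither group but takes part in the shared estimate of the spread, edgeR called 6 (3.45%), namely H2-Aa, H2-Eb1, H2-DMa, H2-DMb1, Cd74 and Ciita.

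ΔNK tumors were the lowest group for all 10 genes. Their 3 tumors were below all 9 others for 8 genes, against 4.32% of tested genes, the exceptions being H2-DMa and H2-Oa, each with the first ΔNK tumor just above a CD8L tumor. Against the mean of the CD8L and CD8H groups, which also received PC blockade, edgeR called all 10 lower, by 2.54 (H2-Ob) to 3.56 (Cd74 and H2-Aa) on the log2 scale, where 6.99% of tested genes were called lower. The median of the 10 was -3.07, and -4.22, -2.57 and -2.98 without the first, the second and the third ΔNK tumor. Calls dropped to 8 without the second ΔNK tumor, when H2-Oa and H2-Ob were lost. They dropped to 4 without the third, when H2-Aa, H2-Eb1, H2-Ob and Cd74 were left. Calls over all genes, in either direction, fell from 1750 to 682 and 875 in that order. Against IgG alone the log2 differences were -1.67 (Ciita) to -2.87 (H2-Eb1), with a median of -2.50 where the median of all tested genes was 0.01. That median of the 10 was -3.70, -2.03 and -2.32 without the first, the second and the third ΔNK tumor, with every gene lower each time. None was called by edgeR, which called 0.0173% of tested genes lower, while all 10 had an unadjusted p of at most 0.05, as 2590 genes did. DESeq2 called 7 (3.01% of tested genes lower), not H2-DMa, H2-DMb1 or Ciita, and limma voom called 8 (4.19%), not H2-Ob or Ciita. Against CD8L alone the differences were -1.51 (H2-DMb2) to -2.19 (H2-Aa), with a median of -1.88 that became -2.94, -1.36 and -1.80 when these tumors were left out in the same order, and 0 of the 10 and 0% of tested genes were called, with all 10 and 1052 genes at an unadjusted p of at most 0.05. DESeq2 and limma voom called 0 of the 10 as well.

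No gene of the set passed the test between CD8L and IgG tumors. The log2 differences of CD8L minus IgG were -0.91 to 0.17, edgeR called 0 of the 10 and 0% of tested genes, and none of the 10 but 379 genes overall had an unadjusted p of at most 0.05. With both PC groups averaged, PC minus IgG was 0.28 (H2-Ob) to 1.22 (Ciita), again with 0 of the 10 and 0% of tested genes called and none of the 10 at an unadjusted p of at most 0.05, against 724 genes. DESeq2 and limma voom also called 0 of the 10 in either comparison. A difference of the size of the standard errors, 0.48 to 0.77 on the log2 scale in both comparisons, was not detectable at this number of tumors.

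**Figure D2:**
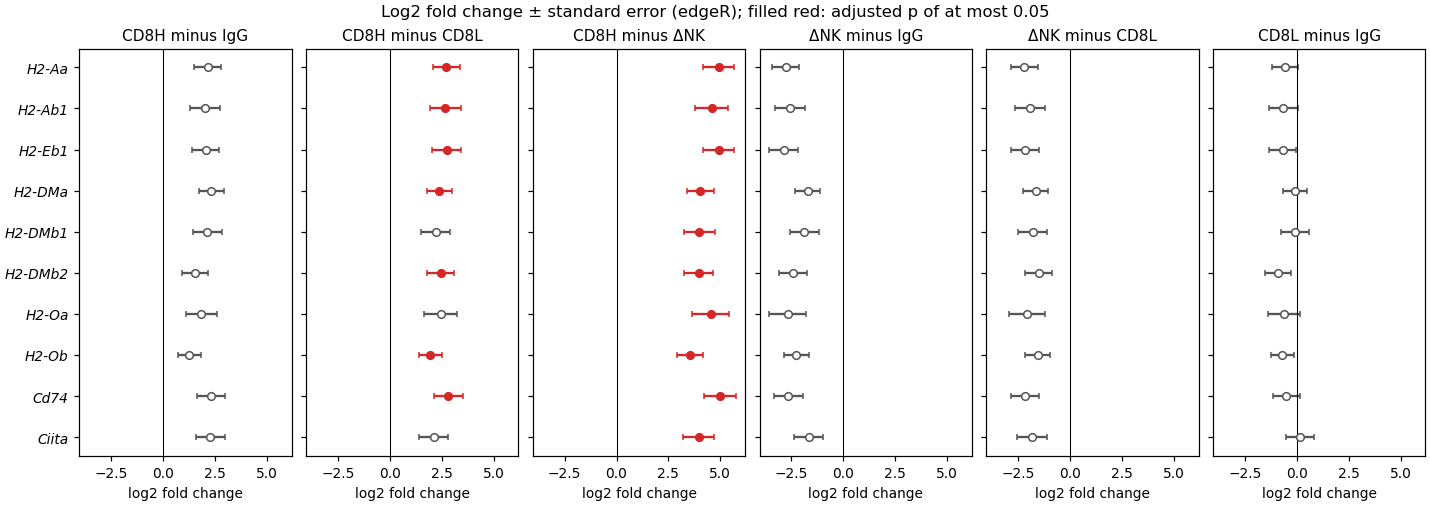
Log2 fold change (x axis) of each gene (y axis) in the 6 pairs of groups, with its standard error, from the edgeR fit of all 12 libraries. Filled red symbols are genes with an adjusted p of at most 0.05, 7 in CD8H minus CD8L, 10 in CD8H minus ΔNK and none in the other 4 pairs.

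Levels of different genes were compared per length, as the authors' FPKM. The FPKM imply lengths of 784 bases for H2-Ab1 and 1184 for H2-Eb1, where the deposited table gives 1637 and 1184. Levels of one gene relative to another, and the order of the chains, therefore depend on the lengths used, which are not stated. The mean FPKM in IgG tumors was 368 for Cd74, 206 for H2-Ab1, 205 for H2-Aa and 112 for H2-Eb1. It was 30.8 for H2-DMb1, 25.6 for H2-DMa, 8.85 for Ciita, 2.35 for H2-DMb2, 1.15 for H2-Ob and 1.06 for H2-Oa. Cd74 and the chains thus had the highest FPKM and the H2-O chains the lowest, with H2-DMb2 far below its paralog H2-DMb1. The FPKM of H2-Aa was 101% ± 5.64 of that of H2-Ab1 in IgG tumors and 108% ± 2.84 in CD8H tumors, and that of H2-Eb1 was 54.5% ± 2.56 and 55.0% ± 3.94 (SD, n = 3). The FPKM of H2-Oa was 3.13% ± 0.89 of that of H2-DMa in CD8H tumors and 4.27% ± 2.58 in IgG tumors. That of H2-Ob was 2.16% ± 0.50 and 3.62% ± 1.33 of the FPKM of H2-DMb1.

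Ratios of 2 genes within a library do not depend on library scaling, and 12 such ratios were compared as log2 of counts for CD8H against the 9 other tumors and for ΔNK against the 9 others. None of the 24 exact two-sided permutation tests passed after Benjamini-Hochberg adjustment, the lowest adjusted p being 0.109. The lowest p that 3 against 9 tumors allow is 0.00909. Among 24 tests a single ratio at that p cannot pass, so these results do not show that ratios were unchanged. The ratio of Cd74 to H2-Ab1 was 1.87, 1.94 and 1.90 in CD8H tumors and at most 1.84 in the others, 0.23 higher on average (exact permutation p = 0.00909, adjusted p = 0.109). The ratio of H2-DMa to H2-Ab1 was -1.96, -1.33 and -1.03 in ΔNK tumors and -2.21 ± 0.30 in the 9 others (SD), 0.78 higher in ΔNK (exact permutation p = 0.0273, adjusted p = 0.131).

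The ratio of Ciita to H2-Ab1 separated groups in another order. It was -2.46, -2.42 and -2.25 in IgG, -1.50, -1.54 and -1.66 in CD8L, -2.29, -2.02 and -1.94 in CD8H and -1.78, -2.52 and -0.69 in ΔNK tumors. The 3 CD8L tumors were above all IgG and CD8H tumors, and the ΔNK tumors spanned the whole range. In FPKM, Ciita was 7.61% ± 0.45 of H2-Ab1 in CD8L, 4.34% ± 0.35 in IgG and 5.34% ± 0.65 in CD8H tumors (SD, n = 3). This gap was seen after the values were known and was not tested, and an exact test of 3 against 3 tumors cannot give a p below 0.10.

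**Figure D3:**
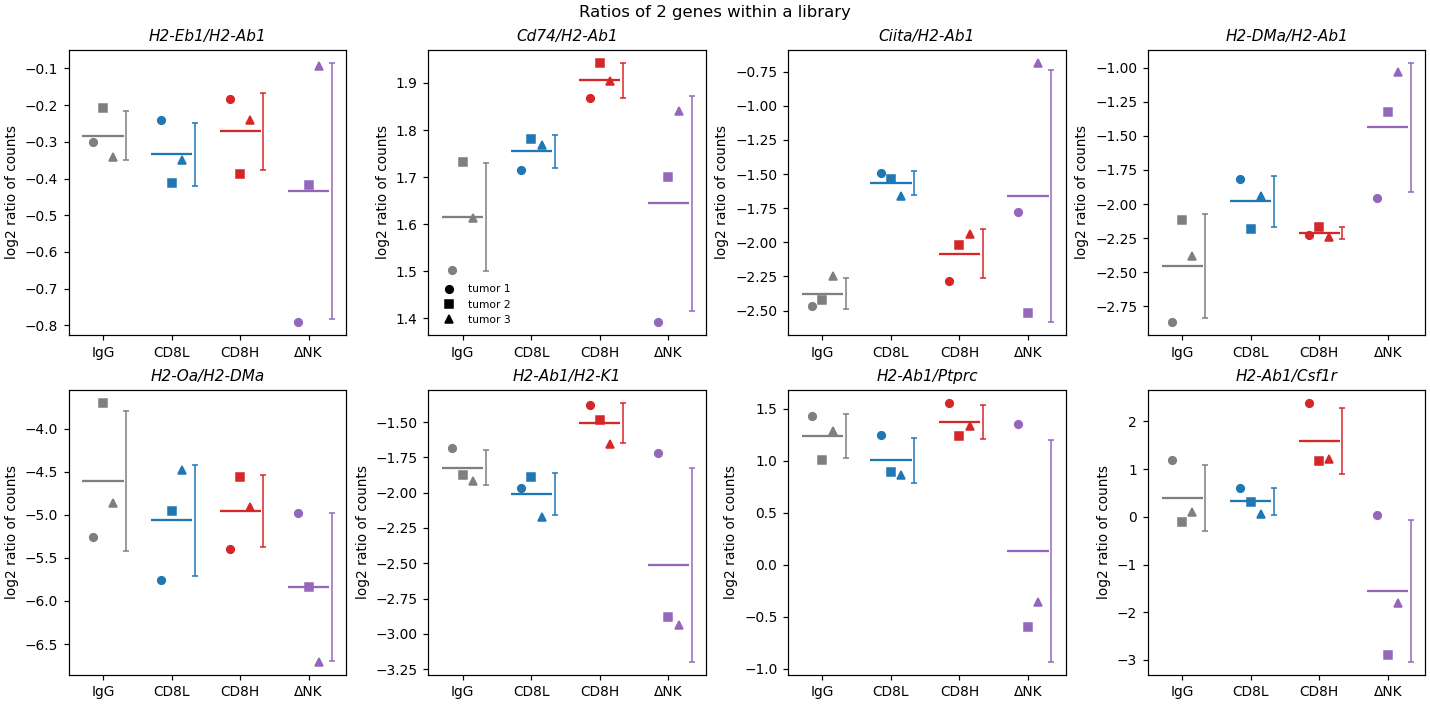
Log2 ratio of the counts of 2 genes within each library (y axis, own range for each ratio) by group (x axis), with a pseudocount of 0.5. Symbols are tumors, lines group means and bars the SD of 3 tumors. Cd74/H2-Ab1 is highest in the 3 CD8H tumors (1.87 to 1.94), and Ciita/H2-Ab1 is -1.66 to -1.50 in CD8L against -2.46 to -2.25 in IgG.

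Levels of the 10 genes were correlated across tumors. Over the 12 libraries the Pearson r of log2 CPM was 0.89 to 1.00 for the 45 pairs, with a median of 0.97. As deviations from group means, r was 0.36 to 1.00 with a median of 0.95. The pairs share libraries, scaling and cell content, so these values are a description. H2-Oa with H2-Ob and H2-Oa with Ciita had the lowest r over the 12 libraries, 0.89 each, and H2-Aa with Cd74 the highest. The other genes most like H2-Ab1 over the 12 libraries were H2-K1 (r = 0.99), H2-D1 (0.99), 9330175E14Rik (0.99), Il2ra (0.99) and B2m (0.98), of which H2-K1, H2-D1 and B2m encode MHC class I chains and Il2ra an interleukin-2 receptor chain. Those most like Ciita were Tap2, Sp110, Psmb9, Apol10b and Ifi211, with r of 0.99 to 1.00, and Tap2 and Psmb9 serve class I peptide supply.

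Other genes of the pathway were followed as lists, each counted for CD8H over the mean of the 3 others by edgeR. Of 12 tested regulators of class II transcription, 6 were called higher and 1 lower, with a median log2 difference of 0.29 and a range of -0.40 to 2.26. Those higher included Irf8 (2.20 ± 0.33, SE), which activates interferon-responsive genes, Spi1 (1.5 ± 0.31), the myeloid factor PU.1, and Prdm1 (2.26 ± 0.26), a repressor of Ciita. Prdm1 had 15.3, 12.4 and 6.85 CPM in CD8H tumors and 1.46 to 3.60 CPM in the 9 others. Rfxap, another of the 12, did not rise, with 439, 451 and 393 reads in CD8H tumors and 429 to 689 in the 9 others. Of 8 genes from interferon γ to Ciita, 7 were called higher and none lower, with a median of 1.16. Ifng, interferon γ itself, had 14.7, 12.5 and 5.69 CPM in CD8H tumors and 0 to 2.06 CPM in the 9 others, a log2 difference of 3.66 ± 0.58 (SE, edgeR adjusted p = 0.00182). Its receptor chain Ifngr1 rose by 1.02 ± 0.16, Jak2 by 0.70 ± 0.10 and Jak1 by 0.42 ± 0.08. In ΔNK minus the mean of CD8L and CD8H, 5 of the 12 regulators and 5 of these 8 genes were called lower and none higher, and the lists overlap.

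Of 11 tested genes for antigen processing and surface turnover, 10 were called higher in CD8H and none lower, with a median of 0.76. Ctss, the protease of the last steps of Cd74 trimming, rose by 2.03 ± 0.33 (SE), Lgmn, an endosomal asparagine protease, by 1.32 ± 0.17, and Cd83, which keeps class II at the surface, by 2.18 ± 0.34. Cd1d1, which presents lipids to NKT cells, rose by 2.54 ± 0.37. All 9 genes of class II recognition and costimulation were called higher, with a median of 2.52. Among them were the ligands Cd86 (2.52 ± 0.37) and Cd80 (1.73 ± 0.21) and the costimulatory receptors Cd28 (3.57 ± 0.43) and Icos (3.53 ± 0.49). The last 2 are genes of T cells, whose number set the CD8H group apart. Ifng is a gene of T cells and also of NK cells, whose markers were higher in CD8H tumors too. The MHC class I list holds genes of class I chains, of class I peptide supply and of their regulation. All 9 of its genes were called higher too, with a median of 1.95. Among them were Psmb8 (2.89 ± 0.40), of peptide supply, and the chains H2-K1 (2.57 ± 0.40), H2-D1 (1.95 ± 0.37) and B2m (1.55 ± 0.31). In ΔNK minus the PC mean, 5 of 11, 8 of 9 and 9 of 9 genes of these lists were called lower.

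Within libraries H2-Ab1 was also set against the class I chain H2-K1. The log2 ratio of H2-Ab1 to H2-K1 was -1.38, -1.48 and -1.66 in CD8H tumors and -1.68 or less in the other 9, 0.61 higher on average (exact permutation p = 0.00909, adjusted p = 0.109). In ΔNK tumors it was -1.72, -2.88 and -2.94. The second and the third of these were below all IgG, CD8L and CD8H tumors, and the difference of -0.73 did not pass (exact permutation p = 0.0545, adjusted p = 0.187).

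In bulk RNA, fewer cells of a type and less RNA per cell cannot be told apart. Many markers of class II-bearing cells were higher in CD8H tumors too, with the smallest share called among microglia markers. In CD8H over the mean of the others, edgeR called higher 8 of 8 B cell, 8 of 12 conventional dendritic cell, 6 of 7 plasmacytoid dendritic cell, 11 of 13 macrophage and monocyte and 4 of 8 microglia markers. Summed CPM of macrophage and monocyte markers was 1376 to 2139 in CD8H, 700 to 1170 in IgG, 495 to 917 in CD8L and 208 to 592 in ΔNK tumors. For B cell markers it was 18.4 to 34.2, 4.76 to 11.8, 4.90 to 6.89 and 2.49 to 3.96 in the same order. Conventional dendritic cell markers are given as the mean of their log2 CPM, since Fscn1 alone had 130 to 179 CPM, against sums of 159 to 299 CPM over the list. That mean was 2.81 to 3.48 in CD8H, 1.37 to 2.07 in CD8L and 0.09 to 0.99 in ΔNK tumors, with IgG tumors at 2.04 or more and below the CD8H tumors. The median log2 difference of these 12 markers in ΔNK minus IgG was -2.09, with none called by edgeR. Microglia markers summed to 260 to 478, 229 to 331, 139 to 285 and 114 to 168 CPM in CD8H, IgG, CD8L and ΔNK tumors. CD8H tumors thus overlapped IgG and CD8L tumors, and the first CD8H tumor, highest in class II, had the lowest sum of its group. Among plasmacytoid dendritic cell markers, Bst2 had 11521 to 16812 reads in CD8H tumors, where Tcf4 had 1914 to 3805 and each other marker fewer. These markers are therefore also given as the mean of their log2 CPM. That mean was 4.41 to 4.69 in CD8H, 3.47 to 3.86 in IgG, 2.66 to 3.77 in CD8L and 1.51 to 2.28 in ΔNK tumors. The part of these cells in the class II levels was not tested.

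All 10 T cell and all 8 NK cell markers were also called higher in CD8H. T cell markers summed to 188 to 538 CPM in CD8H, 30.7 to 51.0 in IgG, 11.96 to 52.5 in CD8L and 0.85 to 11.4 in ΔNK tumors, NK cell markers to 57.4 to 139, 14.6 to 34.6, 8.57 to 21.2 and 0.97 to 3.05. CD8H was chosen for its CD8+ T cells, so the T cell sums describe that choice. Melanocyte lineage markers, which the tumor cells express, summed to 9207 to 17151 CPM in CD8H and 18208 to 26041 CPM in the 9 other tumors, with 1 of 8 called lower. Of 12 neuron markers 1 was called higher, and of 8 astrocyte and oligodendrocyte markers none was, with median log2 differences of 1.38 and 1.24. Their part in the class II levels was not tested.

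**Figure D4:**
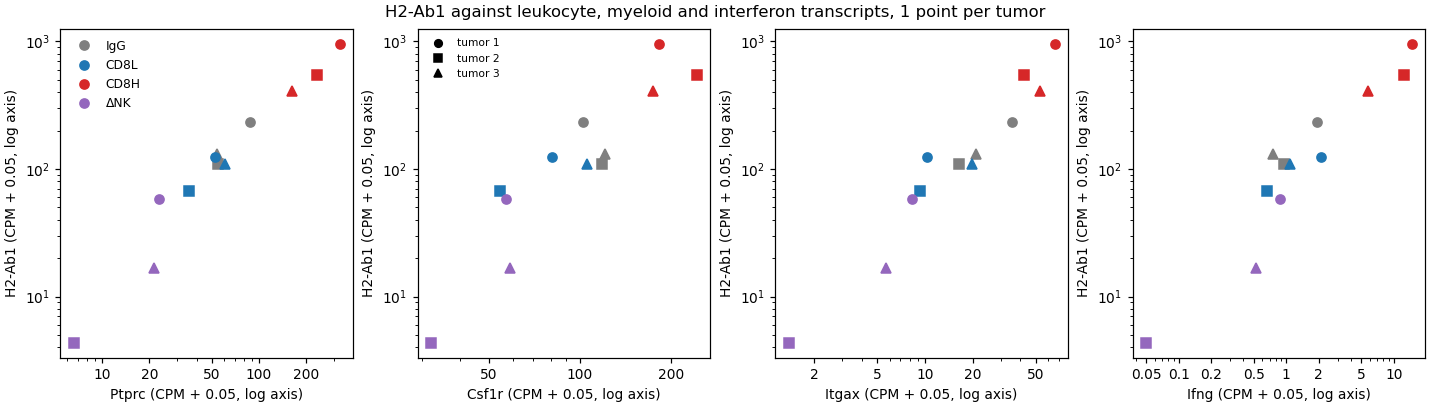
H2-Ab1 (y axis) against Ptprc, Csf1r, Itgax and Ifng (x axes) in the 12 tumors, as CPM + 0.05 on log axes, with a color for each group and a symbol for each tumor number. H2-Ab1 covers 4.31 to 958 CPM, while Csf1r covers 32.2 to 245 CPM.

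Over the 12 tumors H2-Ab1 ran from 4.31 to 958 CPM, a wider range than that of the macrophage receptor gene Csf1r (32.2 to 245 CPM) or of Ptprc, which encodes the leukocyte antigen CD45 (6.55 to 326 CPM). Some markers on the lists had a wider relative range than H2-Ab1, which had 71 to 20104 reads. Ly6c2, of the macrophage and monocyte list, had 5 to 2858 reads. Ccr7, of the conventional dendritic cell list, had 1 to 574 reads. Csf1r had 183, 245 and 175 CPM in CD8H tumors and 56.7, 32.2 and 58.6 in ΔNK tumors. The log2 ratio of H2-Ab1 to Csf1r was 2.39, 1.17 and 1.22 in CD8H, 0.05, -2.89 and -1.81 in ΔNK and -0.11 to 1.19 in IgG and CD8L tumors. It was 1.87 higher in CD8H and 2.32 lower in ΔNK (log2 difference -2.32) than in the 9 other tumors (exact permutation p = 0.0182 for each, adjusted p = 0.109). The ratio to Ptprc was 1.55, 1.23 and 1.33 in CD8H, 0.87 to 1.42 in IgG and CD8L and 1.35, -0.60 and -0.35 in ΔNK tumors. CD8H overlapped IgG and CD8L in that ratio, and the second and the third ΔNK tumors were below the 10 others (exact permutation p = 0.109 for CD8H and 0.0727 for ΔNK, adjusted p = 0.262 and 0.194). The ratio of H2-Ob to the B cell gene Cd79a was 0.88 ± 0.49 in CD8H and 0.46 ± 1.3 in the 9 others (SD, exact permutation p = 0.682).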

How the data were processed

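Bulk mRNA-seq of 12 intracranial tumors, 3 per group, was analysed. Per the labels, reads were placed on GRCm38.p6 by STAR 2.6.1d, and the authors deposited raw read counts per gene made with featureCounts 1.5.0-p3. They also deposited FPKM, whose implied lengths are shorter than the table's gene lengths for 9 of the 10 genes. StringTie 1.3.3b and DESeq2 1.26.0 are named too. Neither annotation release nor strand setting is given in the sources used here. Groups follow the labels. In the main edgeR fit, p-values set a group difference against a spread between tumors that is estimated from all 12 libraries.

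Counts were tested with edgeR 4.0.16 (R 4.3.3; quasi-likelihood, TMM, filterByExpr, all 12 libraries, 8 residual degrees of freedom, 9 comparisons), tested on simulated data. Levels are CPM after TMM. Ratios used log2 of counts + 0.5 and exact permutation tests (scipy 1.17.1). Alternatives were DESeq2 1.42.0, limma 3.58.1 voom, RLE scaling, no filter, a replicate block, fits of 6 libraries, the 9 others as a single group, other pseudocounts and leaving out each library. DESeq2 filters genes itself. Replicate numbers, from the labels, were taken to pair groups where the deviations from group means of every same-numbered pair correlated over 0.1. This held for 1 of 6 pairs of groups, CD8L and ΔNK (r = 0.48 to 0.59), where the block changed no call. Over all groups r was -0.36 to 0.73 for 18 same-numbered and -0.73 to 0.70 for 36 different-numbered pairs, with 11 and 8 over 0.1.

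The genes and lists were chosen with earlier results of these data known. The text names all 10 genes, up to 4 genes per pathway list by p, genes used in ratios and the 5 genes most like H2-Ab1 and Ciita. Other genes named, such as Ly6c2, Ccr7, Bst2 and Rfxap, were picked after their values were seen. Marker lists of endothelial cells gave 1 gene higher and 2 lower of 8 in CD8H. Intervals and floors cover counting error only. Certain genes are not reported here.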

Additional observations from a re-analysis of the deposited data

How the results depend on the processing

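Of the fold changes of the 10 genes under alternatives, 1473 kept direction and call, 61 gained a call, 58 lost one and 7 changed sign, none of these called. The 7, all on leaving out a tumor, were in CD8L minus IgG for H2-DMa (0.0049 without IgG 1, 0.22 without CD8L 2, range -0.35 to 0.22), H2-DMb1 (0.23 and 0.19, likewise, range -0.46 to 0.23) and Ciita (-0.04 without IgG 2, -0.063 without CD8L 1, up to 0.45), and in PC minus IgG for H2-Ob (-0.058 without IgG 3, up to 0.83). Of the ratio differences 13 changed sign and none was called. H2-Oa/H2-DMa was -0.18 (pseudocount 2) and -0.21 (FPKM + 0.1) for CD8H and 0.0105 (FPKM + 0.1) for ΔNK. For ΔNK on leaving out a tumor, H2-DMb2/H2-DMb1 was -0.19 to 0.18, H2-Aa/H2-Ab1 -0.22 to 0.0545, H2-Eb1/H2-Ab1 -0.31 to 0.0405, Cd74/H2-Ab1 -0.21 to 0.0116 and Ciita/H2-Ab1 -0.14 to 0.77.

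Genes of the set called in CD8H minus IgG (0 of 10 in edgeR) were 7 with DESeq2, 10 with limma voom and 0 to 6 when a library was left out. In ΔNK minus IgG (0) they were 7 and 8, and 0 without any single library. In CD8H minus CD8L (7) they were 0 in the fit of 6 libraries and 0 to 10 when a library was left out, and in ΔNK minus the PC mean (10) they were 4 to 10. The counts of CD8H minus the mean of the others and CD8H minus ΔNK stayed at 10. The cause was not tested.

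For the other 5 pairs of groups, replicate numbers did not pair the tumors by the same rule, with r of -0.36 to 0.73 and 8 of 15 pairs over 0.1. With a replicate block edgeR called 7 genes of the set in CD8H minus IgG and 2, H2-Aa and H2-Eb1, in ΔNK minus IgG, and 9, all but H2-Oa, in CD8H minus CD8L, and it called 884, 34 and 2923 of all genes in these comparisons and CD8H minus CD8L. The block changed the call of no member in the other 6 comparisons.

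Of all genes, edgeR called 129 in CD8H minus IgG, against 1322 with DESeq2, 2606 with limma voom, 300 without a filter, 0 in 6 libraries and 0 to 757 when a library was left out. For ΔNK minus IgG it called 3, against 574, 1374, 12, 28 and 0 to 5. Counts were 1939 in CD8H minus CD8L against 3870 with limma voom, 0 in 6 libraries and 0 to 4014, 4551 in CD8H minus the others against 7099 and 2695 to 7061, 5250 in CD8H minus ΔNK against 3412 to 6387, and 1750 in ΔNK minus the PC mean against 2753 with DESeq2, 3232 with limma voom and 682 to 2009. Where edgeR called 0, DESeq2 called 96 in ΔNK minus CD8L and 2 in PC minus IgG. Depth limits H2-Oa, H2-Ob and H2-DMb2, with 11, 22 and 28 reads over the ΔNK tumors.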
